A study of Mus musculus with 4 samples.

Results

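The 6 genes described here, Ttr, Enpp2, Kl, F5, Ace and Sostdc1, encode secreted or surface proteins of the choroid plexus and were found by their symbols in the tables of all 4 libraries, among 18492 genes listed in any library. Their gene IDs in the tables are 22139, 18606, 16591, 14067, 11421 and 66042 in that order. They were selected on their reads and RPKM (reads scaled to gene length and library total), which stood high in the knockout libraries of these same data, so their differences between libraries are a description and test nothing. Hippocampal RNA of 6-month-old C57BL/6 mice was sequenced as a single library per genotype, namely a wild type (WT), Ogg1-/- (Ogg1 KO), Mutyh-/- (Mutyh KO) and a double knockout (DKO) whose genotype is written Ogg-/- Mutyh-/- in the labels. Ogg1 and Mutyh encode DNA glycosylases that act on 8-oxoguanine damage, and the design sets the loss of each, and of both, against WT. The number of animals behind each library, their sex and the construction of the alleles are not given in the sources used here. With 1 library per genotype every comparison is between libraries, and no difference has a replicate check.

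The choroid plexus is a folded epithelium in the brain ventricles, next to the hippocampus, that makes cerebrospinal fluid and releases carriers, growth factors and enzymes into it. Ttr encodes transthyretin, the carrier of thyroxine and of retinol-binding protein, and is the best known secretory product of this epithelium. Enpp2 encodes autotaxin, a secreted enzyme that makes lysophosphatidic acid, and Ace encodes the membrane peptidase that converts angiotensin I to angiotensin II. Kl encodes klotho, a membrane protein of the glycosidase family that serves as co-receptor for the hormone FGF23. F5 encodes coagulation factor V, a cofactor in the clotting cascade, and Sostdc1 encodes a secreted antagonist of BMP and Wnt signals. Only Enpp2 and Ace of the 6 encode enzymes in the strict sense, so the group is better described as secreted and surface proteins.

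The libraries held 17.02 M to 18.2 M unique reads in genes. Ogg1 had 94 reads in WT, 130 in the Ogg1 KO, 81 in the Mutyh KO and 103 in the DKO, so its total ran against the labels Ogg1 KO and DKO, while the covered share of its length was 47.2% and 46.4% there against 86.7% in WT and 81.5% in Mutyh KO. Mutyh had 39, 35, 15 and 20 reads in the same order. Genotype names therefore stand for the libraries so labelled throughout. The Mutyh KO library also stood apart in Xist, the RNA of the inactive X chromosome, with 10307 reads against 14 to 29 in the other libraries, while its Y-linked gene Ddx3y had 289 reads against 724 to 884, so both kinds of sex-linked RNA were present in it. All 6 hippocampal neuron markers (Prox1, C1ql2, Wfs1, Fibcd1, Neurod6 and Camk2a) had reads in every library, with summed levels of 1269 to 1381 RPKM. All 10 choroid plexus markers (Folr1, Kcnj13, Kcne2, Aqp1, Clic6, Slc4a5, Cldn2, Otx2, Tmem72 and Prlr) had reads in every library too, with summed levels of 13.6 RPKM in WT, 117 in the Ogg1 KO, 140 in the Mutyh KO and 61.6 in the DKO. In bulk tissue, fewer cells of a type and less RNA per cell cannot be told apart.

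The RefSeq promoter table (GRCm38.p6; the files were made on mm9) held an entry for 3 of the 6 genes: Kl, F5 and Ace. The 250 bases before the start site are shown 5′ to 3′ for these: chr5:150952357-150952606 for Kl, chr1:164151585-164151834 for F5 and chr11:105967698-105967947 for Ace, all on the plus strand. Any link of these bases to the levels across the libraries was not tested. Capitals mark matches to the motifs searched on both strands: TAATCC (bound by Otx2, a choroid plexus homeodomain factor), TGTTTA (bound by forkhead factors), the CCAAT box, the GC box GGGCGG and the TATA box TATAAA.
Kl: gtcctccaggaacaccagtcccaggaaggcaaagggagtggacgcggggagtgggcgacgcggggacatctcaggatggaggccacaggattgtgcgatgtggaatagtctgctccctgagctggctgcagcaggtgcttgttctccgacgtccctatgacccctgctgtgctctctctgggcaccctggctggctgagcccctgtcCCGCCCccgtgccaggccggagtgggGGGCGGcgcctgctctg
F5: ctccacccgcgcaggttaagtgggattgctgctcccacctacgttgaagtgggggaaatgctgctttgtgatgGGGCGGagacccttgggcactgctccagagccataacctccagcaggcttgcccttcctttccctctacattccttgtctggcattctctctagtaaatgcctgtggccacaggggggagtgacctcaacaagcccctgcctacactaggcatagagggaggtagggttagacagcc
Ace: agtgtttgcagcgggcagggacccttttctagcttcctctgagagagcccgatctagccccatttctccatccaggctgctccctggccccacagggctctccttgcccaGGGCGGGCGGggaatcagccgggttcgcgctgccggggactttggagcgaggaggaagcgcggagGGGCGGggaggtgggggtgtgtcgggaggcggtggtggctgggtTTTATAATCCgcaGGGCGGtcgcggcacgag
The GC box was in all 3 windows, with 2 matches in Kl, 1 in F5 and 4 in Ace, of which 2 overlap, and 32.7% of the 32851 promoter windows of this length held it. TAATCC was found in Ace, 27 to 22 bases before the start, where it overlaps a reverse-strand match to TATAAA, and 6.25% of all windows held TAATCC and 12.4% TATAAA. Neither TGTTTA nor CCAAT was in these 3 windows. Ace had a second start site in the table, inside the gene at chr11:105974939-105975188, with 1 reverse-strand CCAAT match and none of the other motifs. The windows of Kl and Ace were richer in G and C (66.8% and 67.2%) than the median window (52.4%), and that of F5 held 57.2%. These matches describe letters in a window and not bound sites.

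All 6 genes were lowest in WT, intermediate in DKO and highest in the 2 single knockouts. The order WT below DKO below both single knockouts was found in 6 of 6 genes and in 12.3% of the 13186 genes compared, those with a mean of at least 1 RPKM over the libraries. Together the 6 genes held 0.0538% of all reads in WT, 0.486% in the Ogg1 KO, 0.491% in the Mutyh KO and 0.253% in the DKO. Ribosomal RNA genes held 0.733%, 0.351%, 1.37% and 1.48% of the reads in the same order.

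**Figure D1:**
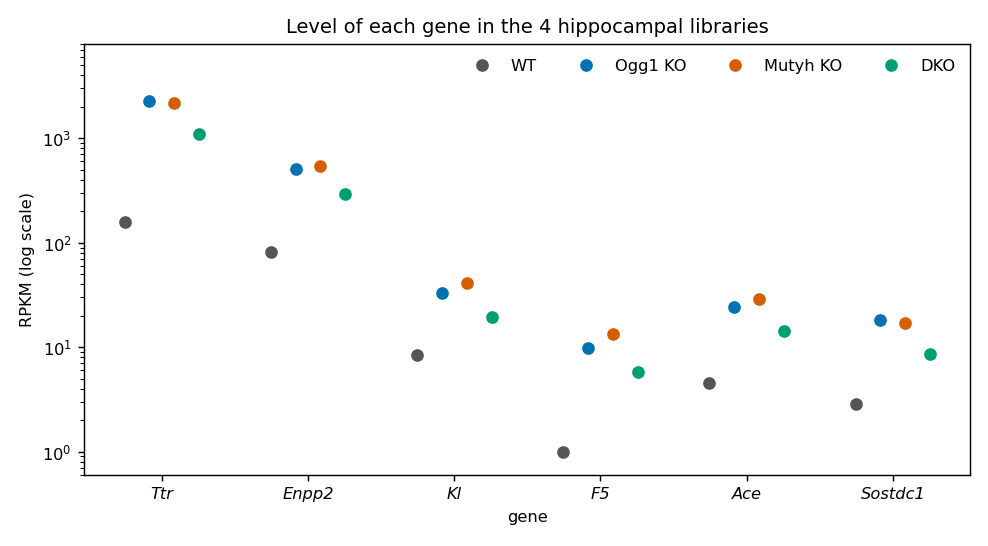
Level of each of the 6 genes in RPKM (log axis) in the WT, Ogg1 KO, Mutyh KO and DKO libraries; each point is 1 library. For every gene the WT point is lowest and the DKO point second lowest, and Ttr is highest and F5 lowest in each library.

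Ttr, the hormone carrier, was the most abundant of the 6 per gene length in each library. Its level was 158 RPKM in WT (3542 reads), 2274 in the Ogg1 KO (47882 reads), 2169 in the Mutyh KO (45999 reads) and 1105 in the DKO (24883 reads). Ranked by RPKM among all genes listed in a library, it stood 273rd in WT, 2nd in Ogg1 KO, 3rd in Mutyh KO and 6th in DKO. The single knockouts were thus close to each other, with DKO between them and WT. Its fold to WT was 14.4 (95% counting interval 13.9 to 14.9) for Ogg1 KO, 13.7 (13.3 to 14.2) for Mutyh KO and 6.99 (6.75 to 7.24) for DKO. The ratio of DKO to Ogg1 KO was 0.486 (0.479 to 0.494) and of DKO to Mutyh KO 0.510 (0.502 to 0.517), and Mutyh KO was 0.954-fold Ogg1 KO (0.942 to 0.966). Such intervals are exact conditional ones on the reads, here and for all folds that follow, and cover counting error only, not the spread between animals. The liver also makes Ttr, and Alb, the liver's albumin gene, had 752 reads in WT, 0 in the Ogg1 KO, 723 in the Mutyh KO and 761 in the DKO. Serpinc1 and Kng1, which the liver also makes, had 26, 2, 19 and 19 reads and 20, 0, 10 and 14 reads. The part of liver RNA in the Ttr values was not tested.

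Enpp2, the autotaxin gene, ranked after Ttr per length in each library. Its level was 81.7 RPKM in WT (4796 reads), 512 in the Ogg1 KO (28255 reads), 538 in the Mutyh KO (29920 reads) and 290 in the DKO (17098 reads). In reads rather than per length, Enpp2 was the largest of the 6 in WT, with 49.2% of their reads against 36.3% for Ttr, whereas in Ogg1 KO it held 34.1% against 57.8% for Ttr. Its fold to WT was 6.27 (6.08 to 6.47) in the Ogg1 KO, 6.59 (6.39 to 6.80) in the Mutyh KO and 3.55 (3.44 to 3.66) in the DKO. Mature oligodendrocytes also express Enpp2. A set of 6 of their markers (Mbp, Mog, Mag, Mobp, Cldn11 and Opalin) summed to 788, 872, 903 and 776 RPKM in WT, Ogg1 KO, Mutyh KO and DKO. Most of that sum was Mbp, with 562, 619, 633 and 539 RPKM. Counted one by one, 5 of the 6 were above WT in the Ogg1 KO library, 6 in that of Mutyh KO and 4 in that of DKO, none of them by 2-fold on the log2 scale with 1 RPKM added. Over all genes compared, 54.6%, 53.0% and 49.3% were above WT in the same libraries. The part of these cells in the Enpp2 values was not tested.

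Kl, the klotho gene, ranked after Enpp2 per length and had the smallest folds to WT of the 6. Its level was 8.42 RPKM in WT (782 reads), 32.8 in the Ogg1 KO (2860 reads), 40.9 in the Mutyh KO (3597 reads) and 19.5 in the DKO (1821 reads). The fold to WT was 3.89 (3.595 to 4.22) in the Ogg1 KO, 4.86 (4.50 to 5.26) in the Mutyh KO and 2.32 (2.13 to 2.52) in the DKO. Mutyh KO was 1.25-fold Ogg1 KO (1.19 to 1.31), so for Kl the single knockouts were apart by more than counting error. Neurons express klotho as well, and the 6 hippocampal neuron markers summed to 1381, 1269, 1275 and 1282 RPKM in WT, Ogg1 KO, Mutyh KO and DKO. The part of neurons in the Kl values was not tested.

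Ace, the angiotensin-converting peptidase, ranked after Kl per length. It had 4.51 RPKM in WT (401 reads), 24.2 in the Ogg1 KO (2022 reads), 29.0 in the Mutyh KO (2436 reads) and 14.2 in the DKO (1264 reads). Its fold to WT was 5.37 (4.82 to 5.99), 6.42 (5.77 to 7.15) and 3.14 (2.80 to 3.52), and Mutyh KO was 1.20-fold Ogg1 KO (1.13 to 1.27). Endothelial cells also carry Ace on their surface. The 5 endothelial markers (Cldn5, Pecam1, Cdh5, Flt1 and Ly6c1) summed to 65.0, 62.1, 67.3 and 65.2 RPKM in WT, Ogg1 KO, Mutyh KO and DKO, all 5 with reads in each library and none at least 2-fold higher in a knockout. The part of endothelial cells in the Ace values was not tested. GENCODE M21 places genes on the opposite strand over Ace (Gm11651), Enpp2 (Gm26684) and F5 (Gm16548), of which Gm16548 is listed, with at most 2 reads. Since no source used here states whether strand was kept, reads of such pairs cannot be told apart. Gm16588, a processed pseudogene, lies over F5 on the same strand and is not listed, so strand would not separate its reads from those of F5.

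Sostdc1, the BMP and Wnt antagonist, ranked after Ace per length and rested on the fewest reads. It had 2.87 RPKM in WT (91 reads), 18.1 in the Ogg1 KO (541 reads), 17.1 in the Mutyh KO (513 reads) and 8.69 in the DKO (277 reads). Its fold to WT was 6.33 (5.06 to 7.99), 5.96 (4.76 to 7.53) and 3.03 (2.38 to 3.88). The interval for Mutyh KO over Ogg1 KO, 0.833 to 1.06, included 1.

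F5, the clotting cofactor, was the lowest per length in every library. It had 0.999 RPKM in WT (134 reads), 9.84 in the Ogg1 KO (1241 reads), 13.4 in the Mutyh KO (1703 reads) and 5.78 in the DKO (779 reads), and reads covered 50.5% of its 7406 bases in WT against 94.3% to 96.3% in the knockouts. F5 passed the minimum of 1 RPKM on its mean only through the knockout libraries, so its place among the genes compared is itself tied to the difference. Its fold to WT was 9.86 (8.24 to 11.9) in the Ogg1 KO, 13.4 (11.3 to 16.1) in the Mutyh KO and 5.79 (4.81 to 7.004) in the DKO. Mutyh KO was 1.36-fold Ogg1 KO (1.27 to 1.47), the largest ratio between the single knockouts among the 6. The order of the 6 genes per length, Ttr, Enpp2, Kl, Ace, Sostdc1 and F5, was the same in all 4 libraries.

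**Figure D2:**
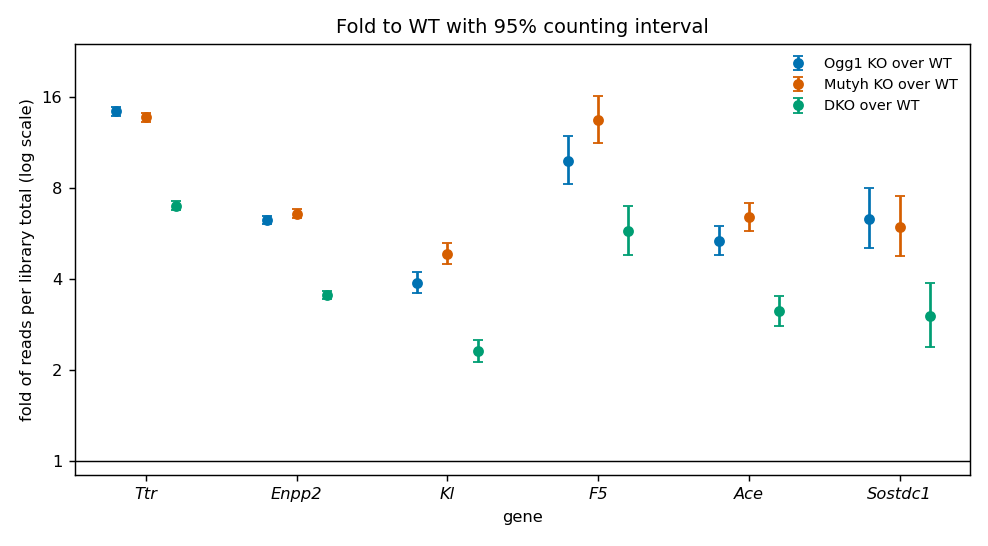
Fold of reads per library total over WT (log axis) for each of the 6 genes in Ogg1 KO, Mutyh KO and DKO; bars are exact 95% intervals that cover counting error only. All 18 points lie above 2, the DKO point is lowest for every gene, and Ttr and F5 have the highest folds.

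On the scale used for all genes, the log2 ratio of RPKM after adding 1, all 6 genes were at least 2-fold higher than WT in each knockout library. Over the 13186 genes compared, 0.554%, 0.743% and 0.546% were at least 2-fold higher in these comparisons, but the genes were chosen with these contrasts in view and nothing is read from the difference. The median log2 ratio of the 6 was 2.37 in the Ogg1 KO, 2.57 in the Mutyh KO and 1.61 in the DKO, beside 0.02, 0.01 and -0.00 over all genes compared. The 3 comparisons share the WT library. Ranked by log2 ratio among all genes compared, the 6 stood between 1st (Ttr) and 22nd (Kl) in Ogg1 KO, between 3rd and 23rd in Mutyh KO and between 3rd and 47th in DKO.

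Comparisons among the knockouts do not use the WT library. All 6 genes were lower in DKO than in either single knockout, and all 12 intervals lay below 1. The folds were 0.479 (Sostdc1) to 0.595 (Kl) against Ogg1 KO and 0.431 (F5) to 0.538 (Enpp2) against Mutyh KO. Over all genes compared, 45.9% were higher in DKO than in Ogg1 KO and 45.3% were higher in DKO than in Mutyh KO. On the log2 scale with 1 RPKM added, 1 gene (Ttr) was at least 2-fold lower in DKO than in Ogg1 KO, where 0.0834% of all genes were, and 2 (Kl and F5) were at least 2-fold lower than in Mutyh KO, where 0.212% were. The median log2 ratio was -0.78 against Ogg1 KO and -0.98 against Mutyh KO. Between the single knockouts none of the 6 reached 2-fold in either direction, as 0.319% of all genes did upward in Mutyh KO and 0.0986% downward, and the median of the 6 was 0.16. Enpp2, Kl, Ace and F5 were higher in Mutyh KO, Ttr was higher in Ogg1 KO, and Sostdc1 did not differ beyond counting error.

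The proportions among the 6 genes were also compared. In WT, Enpp2 stood at 517 RPKM per 1000 RPKM of Ttr, against 225 in the Ogg1 KO, 248 in the Mutyh KO and 262 in the DKO. For Kl the values were 53.3, 14.4, 18.9 and 17.7, for Ace 28.5, 10.6, 13.4 and 12.8, and for Sostdc1 18.1, 7.98, 7.88 and 7.86. WT was thus set apart by a lower share of Ttr relative to these 4 genes. F5 was the exception: it stood at 6.32 per 1000 in WT (5.28 to 7.51), 4.33 in the Ogg1 KO, 6.18 in the Mutyh KO (5.89 to 6.49) and 5.23 in the DKO, and the WT interval included the Mutyh KO value.

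The amount by which each gene exceeded its WT level was then set against the same amount for Ttr. Per 1000 RPKM of Ttr above WT, Enpp2 was above WT by 203 RPKM in the Ogg1 KO (200 to 207), 227 in the Mutyh KO (223 to 231) and 220 in the DKO (214 to 226). The 3 values lay close together although the excess of Ttr itself ran from 947 RPKM in DKO to 2116 in Ogg1 KO. Sostdc1 gave 7.22 (6.44 to 8.0), 7.07 (6.28 to 7.87) and 6.15 (4.90 to 7.40), with overlapping intervals. Kl gave 11.5 (10.9 to 12.2) in Ogg1 KO and 11.7 (10.6 to 12.9) in DKO, but 16.2 (15.4 to 16.9) in Mutyh KO. F5 gave 4.18 (3.91 to 4.45), 6.17 (5.84 to 6.51) and 5.05 (4.58 to 5.52), and Ace 9.31 (8.76 to 9.86), 12.2 (11.5 to 12.8) and 10.2 (9.22 to 11.1). Relative to Ttr, Enpp2, Kl, Ace and F5 therefore had their highest excess in Mutyh KO, beyond counting error against Ogg1 KO for all 4. These amounts share the WT library, and the intervals treat reads as independent counts.

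**Figure D3:**
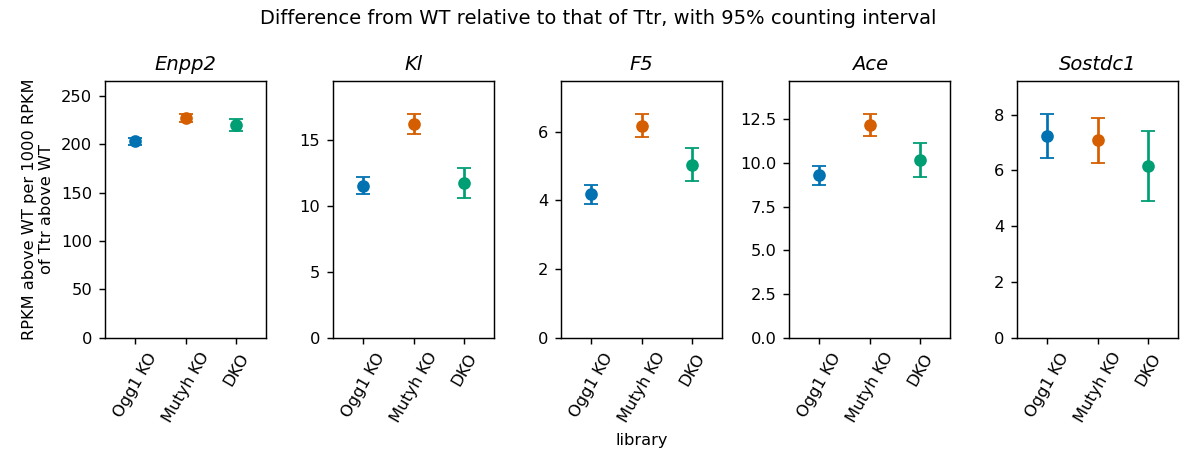
RPKM above WT of Enpp2, Kl, F5, Ace and Sostdc1 per 1000 RPKM of Ttr above WT in the Ogg1 KO, Mutyh KO and DKO libraries; each axis starts at 0 and bars are 95% counting intervals. Mutyh KO is highest for Enpp2, Kl, F5 and Ace, and the 3 intervals of Sostdc1 overlap.

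The excess over WT in DKO was 44.8% of that in Ogg1 KO for Ttr, 48.4% for Enpp2, 45.6% for Kl, 49.0% for Ace, 54.0% for F5 and 38.1% for Sostdc1. Against Mutyh KO it was 47.1% for Ttr, 45.6% for Enpp2, 40.9% for Sostdc1, 39.4% for Ace, 38.5% for F5 and 34.1% for Kl. For each of the 6 genes the double knockout library therefore exceeded WT by less than either single knockout library did.

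The genes with the most similar pattern were sought among all genes compared, by the root mean square difference over the 4 libraries between a gene's centred log2 level (RPKM plus 1) and the mean pattern of the 6. The 8 nearest were Cldn2 (0.05), Slc4a5 (0.09), 1500015O10Rik (0.09), Folr1 (0.14), Aqp1 (0.17), Kcne2 (0.18), Wfdc2 (0.20) and Clic6 (0.23), against a median of 1.07 over all genes compared. Among the 6 themselves, Enpp2 lay nearest to their mean (0.04) and Ttr farthest (0.51). Cldn2, a tight junction protein, had 34, 424, 449 and 239 reads in WT, Ogg1 KO, Mutyh KO and DKO. Slc4a5, a bicarbonate transporter, had 56, 616, 819 and 364, and the secreted protein gene 1500015O10Rik had 38, 330, 368 and 188. Cldn2, Slc4a5, Aqp1 and Wfdc2 were under 1 RPKM in WT and passed the minimum only through the knockouts. Of the 8, 7 were in the choroid plexus lists, which were written with earlier results known, so the overlap tests nothing. Wfdc2, a secreted protease inhibitor family member, was not, and it rested on 4, 58, 65 and 26 reads.

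Other genes of the choroid plexus were mostly higher in the knockouts. Of 23 other epithelial genes in the list, 21 were compared, and 16 were at least 2-fold higher in the Ogg1 KO, 16 in the Mutyh KO and 11 in the DKO, with medians of 1.77, 1.93 and 1.03 on the log2 scale. Over all genes compared the shares at least 2-fold higher were 0.554%, 0.743% and 0.546%. Of the 21, 7 were under 1 RPKM in WT and passed the minimum only through the knockouts, and among the other 14 the counts were 9, 10 and 7. None of the 21 was at least 2-fold lower, as 0.212%, 0.091% and 0.0455% of all genes were. Otx2, the homeodomain factor of this epithelium, had 68 reads in WT, 257 in the Ogg1 KO, 317 in the Mutyh KO and 145 in the DKO. Kcnj13, a potassium channel, had 45, 557, 688 and 350. Over the 10 choroid plexus markers the median fold to WT was 11.8 in the Ogg1 KO, 13.9 in the Mutyh KO and 6.10 in the DKO. Ttr lay above that median in Ogg1 KO and DKO and below it in Mutyh KO. F5, Enpp2, Ace, Sostdc1 and Kl lay below it in all 3. This placement depends on the markers, which are only part of the epithelial list. Of the markers, Aqp1, Slc4a5, Cldn2 and Tmem72 were under 1 RPKM in WT and passed the minimum only through the knockouts. On the log2 scale with 1 RPKM added, all 6 genes lay above the medians of the 21 epithelial genes compared. The lowest log2 ratios of the 6 were 1.84, 2.15 and 1.12, against those medians of 1.77, 1.93 and 1.03. In folds of reads, with nothing added, the middle gene of the 21 was Clic6 in Ogg1 KO (4.72). In Mutyh KO and DKO it was Calml4 (5.43 and 2.62). Kl, at 3.89, 4.86 and 2.32, lay below that gene in all 3, and the rest of the 6 lay above it. The placement of Kl against the 21 thus depends on the 1 RPKM added.

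Among 20 other secreted products assigned to the choroid plexus, 7 were at least 2-fold higher in the Ogg1 KO, 10 in the Mutyh KO and 6 in the DKO, with medians of 0.61, 0.93 and 0.61. These counts stand beside the same 0.554%, 0.743% and 0.546% of all genes. Of the 20, 2 were under 1 RPKM in WT, and among the other 18 the counts were 6, 8 and 5. Igf2, a growth factor that the meninges also make, had 24.6 RPKM in WT, 79.0 in the Ogg1 KO, 114 in the Mutyh KO and 59.7 in the DKO. Igfbp2, which binds such factors, had 17.3, 47.6, 53.5 and 41.2 RPKM. Spint2, a protease inhibitor of the cell surface, had 9.34, 25.3, 23.5 and 14.8 RPKM. The 2 most abundant of these secreted products, which other brain cells make as well, stayed near WT: Cst3 (cystatin C) had 878, 918, 852 and 796 RPKM and Clu (clusterin) 540, 537, 571 and 494 RPKM. Ctsd, next in abundance, had 126, 169, 157 and 133 RPKM. Its fold to WT was 1.34 (1.29 to 1.40) in the Ogg1 KO and 1.25 (1.20 to 1.30) in the Mutyh KO.

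Partners of the 6 proteins were compared next, from lists of their pathways. With 0.554%, 0.743% and 0.546% of all genes at least 2-fold higher, a count of 0 in lists of this size is near the background and no result about them. In the thyroid hormone and retinol list around Ttr, 16 of 17 genes were compared and none was at least 2-fold higher or lower in a knockout. The median log2 ratios were 0.04, -0.01 and -0.02 in Ogg1 KO, Mutyh KO and DKO. Crym, which binds thyroid hormone in the cytosol, had 107 RPKM in WT, 82.4 in the Ogg1 KO, 76.1 in the Mutyh KO and 91.2 in the DKO, and Thra, a thyroid hormone receptor, had 261, 266, 228 and 226 RPKM. Nrgn, neurogranin, a gene that responds to thyroid hormone, had 1044, 976, 977 and 919 RPKM.

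In the lysophosphatidic acid list around Enpp2, 10 of 16 genes were compared and none reached 2-fold either way, with medians of 0.08, 0.16 and 0.09. Enpp5, a relative of Enpp2 with a similar level in WT, had 73.0, 71.9, 84.2 and 71.7 RPKM in WT, Ogg1 KO, Mutyh KO and DKO. Ppap2b, a phosphatase that breaks down lysophosphatidic acid, had 93.8, 96.5, 97.7 and 98.3 RPKM.

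In the klotho list 7 of 19 genes were compared and none reached 2-fold, with medians of 0.11, 0.07 and 0.06. Fgfr1, the FGF receptor that pairs with klotho, had 36.6 RPKM in WT, 30.0 in the Ogg1 KO, 33.6 in the Mutyh KO and 35.1 in the DKO. The phosphate transporter Slc20a1 had 37.4, 42.8, 39.2 and 39.1 RPKM. The klotho relative Klb had 7 to 15 reads per library, too few to be compared.

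In the coagulation list 10 of 22 genes were compared. Serpind1 (heparin cofactor II, a thrombin inhibitor) was at least 2-fold higher in DKO, with 60 reads in WT, 76 in the Ogg1 KO, 108 in the Mutyh KO and 161 in the DKO, and no other gene reached 2-fold. Its order differs from that of F5, since DKO was highest. The median log2 ratios were 0.03, 0.16 and 0.13. F8, the factor most closely related to F5, had 60, 68, 72 and 78 reads and lay under the minimum of 1 RPKM. Mcfd2, which with Lman1 carries factors V and VIII out of the endoplasmic reticulum, had 20.2, 20.4, 19.5 and 21.8 RPKM.

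In the renin-angiotensin and kinin list 7 of 18 genes were compared, with medians of 0.09, -0.00 and 0.02. The aminopeptidase gene Anpep was at least 2-fold higher in Ogg1 KO, with 105 reads in WT, 276 in the Ogg1 KO, 141 in the Mutyh KO and 170 in the DKO. Lnpep, an insulin-regulated aminopeptidase, was at least 2-fold higher in DKO, with 186, 382, 389 and 516 reads. Neither followed the order of Ace. Agt, the angiotensinogen gene made by astrocytes, had 19.5, 18.7, 19.5 and 16.3 RPKM, and Mas1, the angiotensin-(1-7) receptor gene, had 849, 718, 745 and 739 reads.

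In the BMP and Wnt list around Sostdc1, 23 of 25 genes were compared, with medians of 0.08, 0.17 and 0.10, and 0, 1 and 2 genes were at least 2-fold higher in Ogg1 KO, Mutyh KO and DKO. These were Bmp6 in Mutyh KO, and Bmp4 and Bmpr2 in DKO. The ligand gene Bmp6 had 138 reads in WT, 276 in the Ogg1 KO, 369 in the Mutyh KO and 297 in the DKO, and Bmp4 had 30, 59, 79 and 99. The receptor gene Bmpr2 had 508, 754, 955 and 1121 reads. Id2, which BMP signals induce, had 39.0, 37.2, 38.8 and 39.2 RPKM. Sost, the closest relative of Sostdc1, had 2 to 14 reads per library and was not compared.

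**Figure D4:**
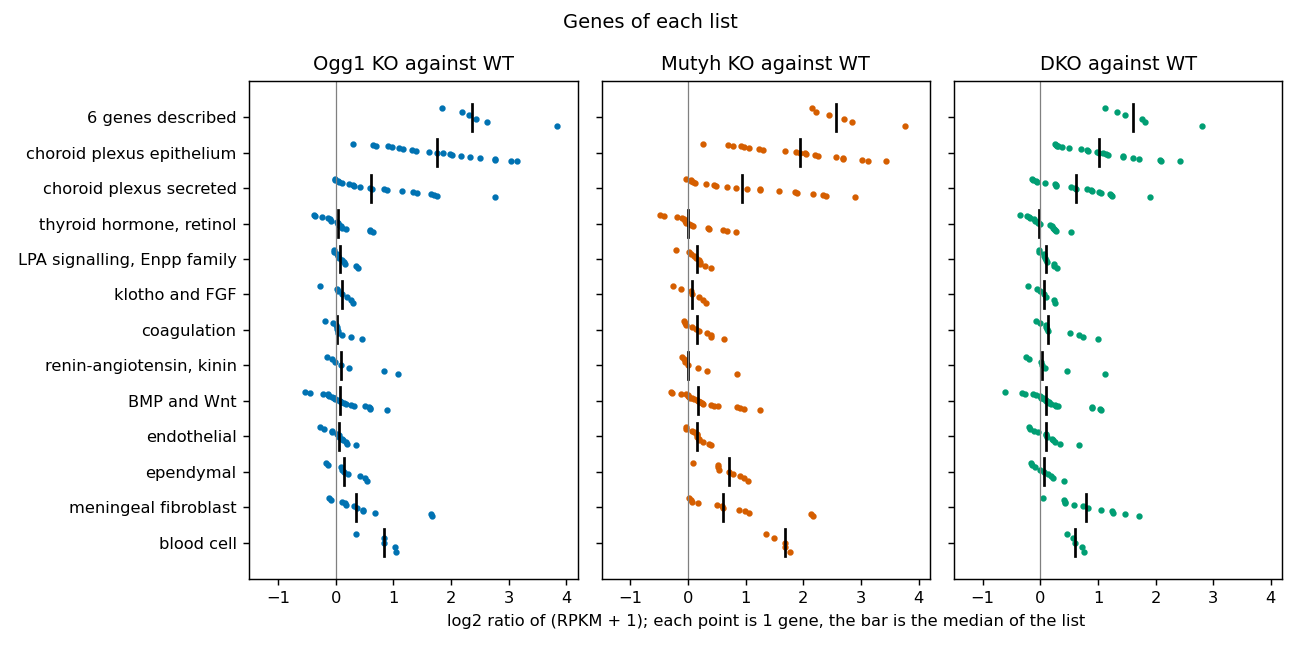
Log2 ratio to WT of (RPKM + 1) for the genes of each list in Ogg1 KO, Mutyh KO and DKO; each point is 1 gene compared, the black bar is the median of its list, and LPA is lysophosphatidic acid. The 6 genes and the choroid plexus epithelium lie to the right of 0 in all 3 panels, and the medians of the pathway lists lie between -0.02 and 0.17.

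Markers of cells that border the choroid plexus moved with the 6 genes in part. Ependymal markers (Foxj1, Tmem212, Rsph1 and Ccdc153), all 4 with reads in each library, summed to 20.0 RPKM in WT, 23.0 in the Ogg1 KO, 36.4 in the Mutyh KO and 19.3 in the DKO, and none was at least 2-fold higher on the scale with 1 RPKM added. Over a longer list of 12 ependymal genes the sum was higher in DKO than in WT. Of the 9 compared, 7, 9 and 5 were above WT, beside 54.6%, 53.0% and 49.3% of all genes. Of these 9, 1 was at least 2-fold higher in Mutyh KO. The 5 meningeal markers (Slc13a4, Aldh1a2, Slc6a13, Col1a1 and Dcn) summed to 45.7, 58.0, 71.9 and 70.4 RPKM, with 1, 1 and 2 of them at least 2-fold higher in Ogg1 KO, Mutyh KO and DKO. The 5 blood markers (Hba-a1, Hba-a2, Hbb-b1, Beta-s and Alas2) summed to 55.4, 113, 190 and 85.3 RPKM, with 2, 5 and 0 of them at least 2-fold higher. Over all genes compared, 0.554%, 0.743% and 0.546% were at least 2-fold higher in Ogg1 KO, Mutyh KO and DKO. The globin genes share sequence with near copies. Summed over these 5, meningeal markers were about as high in DKO as in Mutyh KO, whereas the 6 genes were not. Over a longer list of 12 meningeal genes the sum was lower in DKO than in Mutyh KO, although 7 of the 12 were higher in DKO. Summed blood markers had the order of the 6 genes. Astrocyte markers (Aqp4, Gfap, Aldh1l1 and Slc1a3) summed to 348, 348, 361 and 380 RPKM. The part of these tissues, and of how the hippocampus was dissected, in the values of the 6 genes was not tested.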

How the data were processed

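Hippocampal RNA from 4 genotypes, 1 library each, was sequenced on an Illumina instrument. Per the file headers, the authors deposited a count of unique reads per gene, the gene length, the coverage as a percent of that length (read from the column name) and RPKM for each library. The RPKM values deposited by the authors equalled reads over length and library total. The build was mm9, per the submitters' processing notes. The aligner, counting program, annotation and strandedness are not given in the sources used here. Rows without a symbol (0.0179% to 0.0195% of reads) were kept under their gene IDs.

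Computed here with Python 3.11.15, pandas 2.3.3 and scipy 1.17.1: folds of reads per library total with exact conditional 95% intervals, log2 ratios of RPKM with a pseudocount of 1, and counts of genes at least 2-fold different among 13186 genes with a mean of at least 1 RPKM. Genes not listed in a library were taken as 0 reads. Excess ratios have 95% intervals from Poisson variances. Counting intervals treat reads as independent. edgeR 4.0.16 in R 4.3.3 supplied TMM factors for an alternative scaling, and no count test was run: a contrast of 2 genotypes has no residual degrees of freedom with 1 library each, and a model of additive genotype effects was not fitted. The calculation was tested on simulated data. The 6 genes and all lists were chosen with earlier results of these data known. Genes were named by this rule: the 6, the list members past 2-fold or among the 3 most abundant of their list, and the 8 nearest patterns. Alb, Xist, Ddx3y, Serpinc1, Kng1, F8, Klb and Sost fall outside this rule and were added after their values were seen. Some list members and the marker sums that hold them are not reported here.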

Additional observations from a re-analysis of the deposited data

Results flagged for a closer look

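Loss of Ogg1 went with opposite directions in the 2 Mutyh backgrounds for all 6 genes: each was higher in Ogg1 KO than in WT and lower in DKO than in Mutyh KO. The same 4 libraries give the same contrast for loss of Mutyh. These opposite directions follow from the order WT below DKO below both single knockouts, which 12.3% of all genes compared had. Taken separately, 54.6% of all genes compared were higher in Ogg1 KO than in WT, and 45.3% were higher in DKO than in Mutyh KO. The log2 fold of DKO over Mutyh KO minus that of Ogg1 KO over WT was -4.82 for Ttr (counting interval -4.87 to -4.77), -4.52 for F5 (-4.80 to -4.23), -3.64 for Sostdc1 (-4.02 to -3.25), -3.54 for Enpp2 (-3.59 to -3.49), -3.46 for Ace (-3.64 to -3.27) and -3.03 for Kl (-3.17 to -2.89). The difference was not tested, because each genotype has 1 library, and the 6 values share those libraries.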

How the results depend on the processing

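No fold of the 6 genes changed direction under the scalings tried. These scalings (TMM, median of ratios, and a total without ribosomal RNA genes and the 6 genes) moved 1 of 108 folds beyond its counting interval, that of Ttr in DKO over Mutyh KO, to 0.518 with median of ratios, and none of 45 excess ratios. With a pseudocount of 0.1 RPKM the median log2 ratio in Ogg1 KO was 2.63, and 2 genes were at least 2-fold lower in DKO than in Ogg1 KO. With 5 RPKM the medians were 1.59 (Ogg1 KO), 1.81 (Mutyh KO) and 0.94 (DKO) over WT, -0.69 for DKO against Ogg1 KO and -0.85 against Mutyh KO, with 3 genes at least 2-fold higher in DKO than WT and 0 at least 2-fold lower in DKO than in Mutyh KO. Of the 8 nearest genes, 3 stayed among the nearest 8 and 8 among the nearest 50 with 0.1 RPKM.

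Counts over all genes followed the same settings. Genes at least 2-fold higher than WT in Ogg1 KO, Mutyh KO and DKO numbered 73, 98 and 72, but 131, 191 and 131 with 0.1 RPKM, 26, 41 and 16 with 5 RPKM, and 40, 55 and 41 among 9367 genes with a mean of at least 5 RPKM. Genes at least 2-fold lower numbered 28, 12 and 6, but 51, 19 and 27 with 0.1 RPKM, 6, 1 and 2 with 5 RPKM, 6, 5 and 3 with the higher minimum, and 19 (Mutyh KO) and 12 (DKO) without a minimum. For DKO lower than Ogg1 KO and than Mutyh KO they were 11 and 28, then 37 and 81, 3 and 9, and 6 and 17, with 26 for Ogg1 KO without a minimum. For Mutyh KO over Ogg1 KO, 42 higher and 13 lower became 80 and 21, 13 and 4, and 12 and 5, with 27 lower without a minimum. No paired analysis was possible because each genotype has 1 library. For the same reason no library could be left out. Depth limits Sostdc1 in WT most, at 91 reads.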

Other observations

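Some choroid plexus genes departed from the pattern of the 6, and these were picked after their values were seen. Prlr, the prolactin receptor, had 279 reads in WT, 1590 in the Ogg1 KO, 3677 in the Mutyh KO and 844 in the DKO, so Mutyh KO was 2.30-fold Ogg1 KO (2.16 to 2.44), and A2m, a protease inhibitor, had 149, 314, 1081 and 344 reads, or 3.42-fold (3.01 to 3.89). Among the 6 genes this ratio ran from 0.941 to 1.36. Tmem72 went the other way, with 14, 522, 235 and 258 reads and a ratio of 0.447 (0.382 to 0.522). Col8a1, a collagen chain, had 56, 368, 629 and 209 reads, 1.70-fold (1.49 to 1.94) between the single knockouts. Wfikkn2, a secreted protease inhibitor, had 27, 71, 112 and 93 reads, with DKO above Ogg1 KO.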
